A study of Mus musculus with 109 samples.

Results

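Bait B87 reads from a HindIII site of mouse chromosome 8 in an intron of Dnase2a, the gene of a lysosomal nuclease that degrades DNA of engulfed nuclei. Its 11 columns, all whose title starts with Ch8.B87 except the one titled 1.5 h, were taken out of 109 columns of 4C-seq read counts from C127 cells, an epithelial-like line from a mouse mammary tumour. 4C-seq reads every HindIII fragment that was ligated to 1 chosen fragment, the bait, after formaldehyde fixation, digestion with HindIII, ligation, a second digestion with DpnII and amplification with bait-specific primers. The series asks when, in G1, domains and their distant contacts are set up relative to the replication timing program.

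Interphase chromosomes fold into topologically associating domains, blocks in which loci meet each other more often than loci beyond the block's borders. Over longer distances, gene-rich, GC-rich and early-replicating stretches tend to meet each other, and gene-poor stretches do likewise. Both patterns are largely lost in mitotic chromosomes and are rebuilt in G1.

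The libraries fall into 4 labelled groups. G0 cells were serum-starved for 5 days (2 replicates). Cells titled 2, 3 and 4 h were released from a nocodazole block of 4 h, a drug that arrests cells in mitosis, for the titled time (1 library each, that of 2 h being the sum of 2 technical replicates). Cells titled 30 min and 1 h had the same block and a shorter release (2 replicates each) and are called the first hour here. The G2 library came from a release of 15 h. That gives 10 libraries, all of 1 cell line and all fixed for 10 min in 1% formaldehyde. The labels call the replicates biological, but do not say which cultures they came from, and the p-values below measure the spread between these libraries.

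The bait was located by the bar code in the labels, which holds the primer and the HindIII site. Capitals mark the HindIII site. The short form stood in 8 columns and the long form, with 4 more bases at its start, in 3 (G0 replicate 1, 1 h replicate 2 and 30 min replicate 2).

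Short bar code: gggcggagatggAAGCTT
Long bar code: cgcagggcggagatggAAGCTT
Bait window, chr8:87433976-87434181 (mm9, plus strand): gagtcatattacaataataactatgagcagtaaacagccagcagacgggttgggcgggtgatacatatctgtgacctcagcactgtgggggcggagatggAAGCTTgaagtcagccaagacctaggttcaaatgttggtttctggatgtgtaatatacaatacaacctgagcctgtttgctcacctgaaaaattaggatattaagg

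The short bar code had 1 exact match in mm9, at chr8:87434064-87434081 on the plus strand, with its HindIII site at 87434076. GENCODE places this site in an intron of 4 Dnase2a transcripts (gene 87432459 to 87446814, plus strand), with no exon within 20 bases. Gcdh (87410292 to 87417820), a mitochondrial dehydrogenase of lysine breakdown, and Klf1 (87425827 to 87429194), a transcription factor of red blood cells, lie on the proximal side. Mast1 (87435802 to 87461258), a kinase gene, lies on the distal side. The nearest DpnII sites were 317 bp before and 953 bp after the HindIII site. Proximal here means towards lower coordinates, distal towards higher ones.

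Total reads ran from 266006 in the 4 h library to 3860921 in 1 h replicate 1. The titled times are in doubt, so each direction below holds for the libraries as titled, and values are also given in the order of the table's columns. Of the 55 pairs of columns, 1 stood apart. 1 h replicate 2 and the first technical replicate of 2 h shared 29406 captured sites on other chromosomes, a captured site being one with 1 read or more. That was 92.2% of the sites of the smaller library and 20.8 times the overlap that independent capture would give, against a median of 2.18 times over all pairs and 4.10 times in the next highest pair. The 2 technical replicates of 2 h overlapped 2.58 times as much as independent capture would give (11.4% of the smaller library), above the median of all pairs. The column titled 1.5 h, left out, had 2.34% of its 278667 reads on chromosome 8 and 7 reads within 100 kb of the bait.

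Within 20 kb of the bait, 5 HindIII sites took 2.40% to 24.3% of all reads. The strongest in every column was the site 2221 bp proximal, the other end of the HindIII fragment that holds the bar code, with 9178 reads in the 4 h library and 426413 in 30 min replicate 2. The first site on the distal side, at 2497 bp, had 0 to 298 reads in every column. These 5 sites were left out of the shares below.

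Next to the bait, at 20 kb to 2 Mb on either side, lay 1101 HindIII sites, 491 proximal and 610 distal. Of these, 214 were captured in all 10 libraries (131 proximal, 83 distal) and 164 in none. Counted from the bait itself out to 2 Mb, the proximal side held 54 protein-coding genes at 47.3% GC and the distal side 32 at 43.1%. Of the 214, 39 took a lower share of near reads in both G0 libraries than in all 3 of 2 to 4 h, and 19 a higher one. Within 100 kb of the bait these were 20 and 0 of 29. No such count over all near sites or at the other baits stands beside these. Whether they exceed a background share was therefore not tested. The 5 sites with the highest mean share over the 10 libraries, 8 of them not G0, are shown with 12 bases on either side of HindIII (capitals), because they took the most near reads of any sites captured throughout.

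chr8:87462179 site, 28.1 kb distal, between genes: tgtttatcagccAAGCTTttgtgcagtgcg
chr8:87491273 site, 57.2 kb distal, in Rnaseh2a: ccagccaacctgAAGCTTcagactttgggc
chr8:87462452 site, 28.4 kb distal, between genes: ctagtgaccaagAAGCTTggtgacttgagg
chr8:87365159 site, 68.9 kb proximal, between genes: gtagtattcatgAAGCTTtagaccaccctc
chr8:87387599 site, 46.5 kb proximal, in Farsa: atttaatgcctaAAGCTTccattgtcagca

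The strongest, 28.1 kb distal, took 1.10% and 1.82% of the near reads in G0, against 3.37%, 6.04% and 2.80% in the 2 h, 3 h and 4 h libraries. The G0 values were below all 3 others. The sites listed above were chosen by a mean in which most libraries are not G0. Low G0 values at them are therefore set in part by the choice. The site in Rnaseh2a, which encodes the catalytic subunit of an RNase for RNA-DNA hybrids, took 0.523% and 1.51% in G0, against 3.61%, 3.05% and 3.35% at 2 to 4 h. The site in Farsa, a subunit of phenylalanyl-tRNA synthetase, took 0.781% and 1.23% in G0 and 2.29%, 2.50% and 3.64% at 2 to 4 h. Of the 214, the site with the highest share in G0 replicate 1, in Syce2 at 87405228 and named after its values were seen, took 3.25% and 0.946% in G0, against 1.81%, 2.67% and 0.0238% at 2 to 4 h.

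The near share, which is the percentage of chromosome 8 reads (beyond 20 kb) that lay within 2 Mb, was lowest in G0 replicate 2 and highest in the 4 h library. With 27.9%, 1 h replicate 1 lay between the 2 G0 libraries. The near share was 28.9% and 27.4% in G0 replicates 1 and 2, against 47.5%, 58.0% and 68.4% at 2, 3 and 4 h. The groups did not overlap, and the difference was -29.8 percentage points. An exact two-sided permutation test gave p = 0.10, the smallest that 2 against 3 libraries allow. The difference was smaller when captured sites replaced reads (-11.5 points) or when reads were capped at the 99th percentile (-16.4 points). In captured sites the groups overlapped, with 11.5% and 5.44% in G0 against 4.39%, 23.4% and 32.2% at 2, 3 and 4 h.

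Libraries of 2 to 4 h had a near share of 58.0% ± 10.4 (SD, n = 3), and those of the first hour 43.4% ± 11.4 (SD, n = 4). The first-hour values were 49.5% and 54.0% at 30 min and 27.9% and 42.3% at 1 h. They overlapped with the values of 2 to 4 h, and the difference of 14.6 points was not past the threshold (exact permutation, two-sided p = 0.14, smallest possible 0.029). This comparison and the one above share the libraries of 2 to 4 h. Without 1 h replicate 2, and with 2 h taken from the second technical replicate alone, it was 15.2 points. It was 9.35 points without 4 h and 9.37 without 1 h replicate 1. The G2 library had a near share of 32.0%.

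In column order the near share was 27.4%, 28.9%, 32.0%, 27.9%, 42.3%, 43.1%, 50.6%, 49.5%, 54.0%, 58.0% and 68.4%, which rises in 8 of 10 steps. The 2 columns titled 30 min stand after those titled 2 h in the table. The long-range GC difference, defined below, rose in 8 of 10 steps too. At the other chromosome 8 baits the near share rose in 9, 8, 5 and 7 of 11 steps at B7, B26, B44 and B53, and in 8 of 10 at B118.

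**Figure D1:**
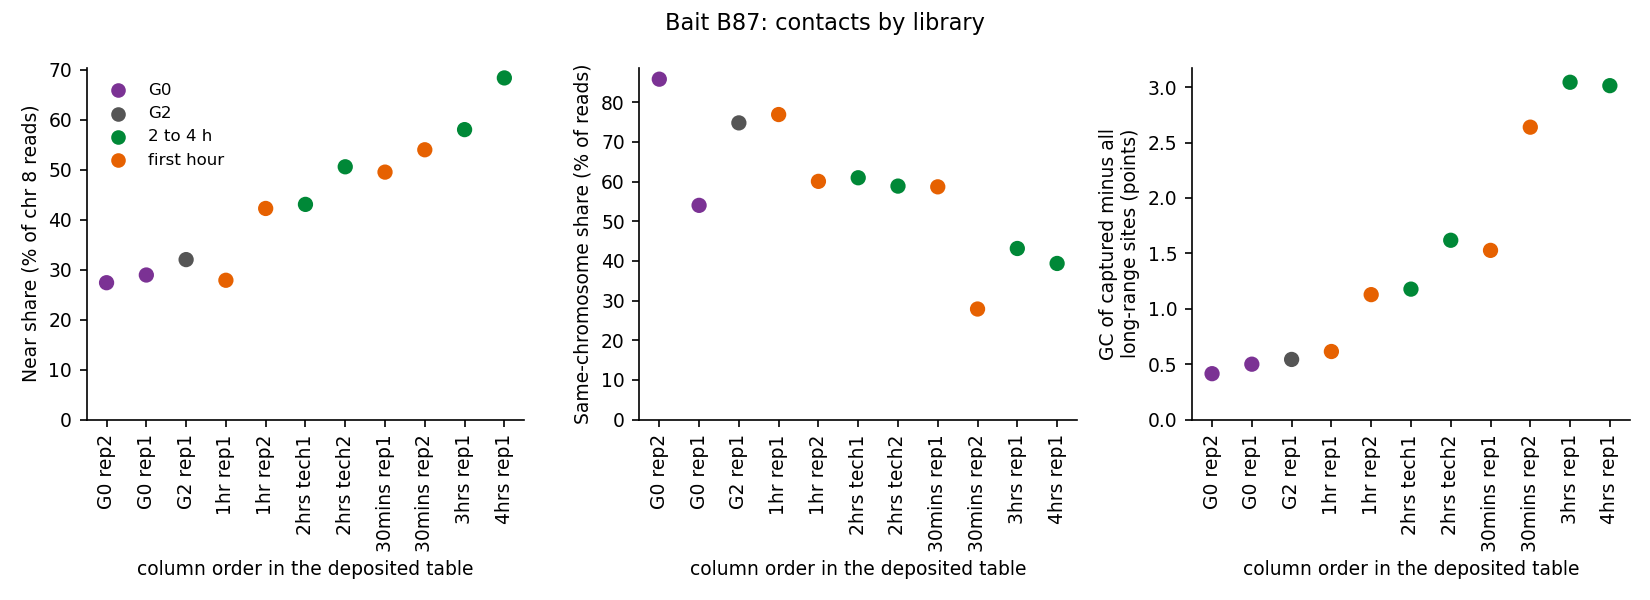
Near share, same-chromosome share and the GC difference of captured long-range sites for the 11 columns of bait B87, in the order of the deposited table, coloured by titled group. Each point is 1 column. The near share runs from 27.4% in the first column to 68.4% in the last, and the GC difference from 0.41 to 3.01 points, while the same-chromosome share was 85.8% in the first column and 39.4% in the last.

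Near reads lay farther from the bait in the libraries titled G0 than in those titled 2 to 4 h. The median distance of proximal near reads was 579 kb and 610 kb in G0, against 132 kb, 100 kb and 222 kb at 2, 3 and 4 h. On the distal side the median was 641 kb and 668 kb in G0, against 98.2 kb, 76.9 kb and 103 kb at 2, 3 and 4 h. In the first hour the medians ran from 68.9 kb to 483 kb proximal and from 91.5 kb to 380 kb distal, with the farthest on both sides in 1 h replicate 1. In column order the proximal medians were 610, 579, 283, 483, 132, 161, 101, 68.9, 132, 99.8 and 222 kb. The distal ones were 668, 641, 224, 380, 137, 103, 98.2, 103, 91.5, 76.9 and 103 kb.

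Reads by distance showed where the rest of the chromosome 8 signal lay. At 20 to 100 kb the G0 libraries held 5.39% and 5.17% of chromosome 8 reads, against 23.3%, 32.5% and 30.6% at 2, 3 and 4 h. At 2 to 10 Mb the order was the opposite, 33.8% and 32.5% in G0 and 11.7%, 8.83% and 6.70% at 2 to 4 h. Beyond 30 Mb the G0 libraries held 8.35% and 9.53%, and the later ones 20.4%, 18.1% and 12.6%. The library titled 1 h replicate 1 had 7.98%, 25.3% and 15.2% in these bands, and the G2 library 11.5%, 22.7% and 14.5%.

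**Figure D2:**
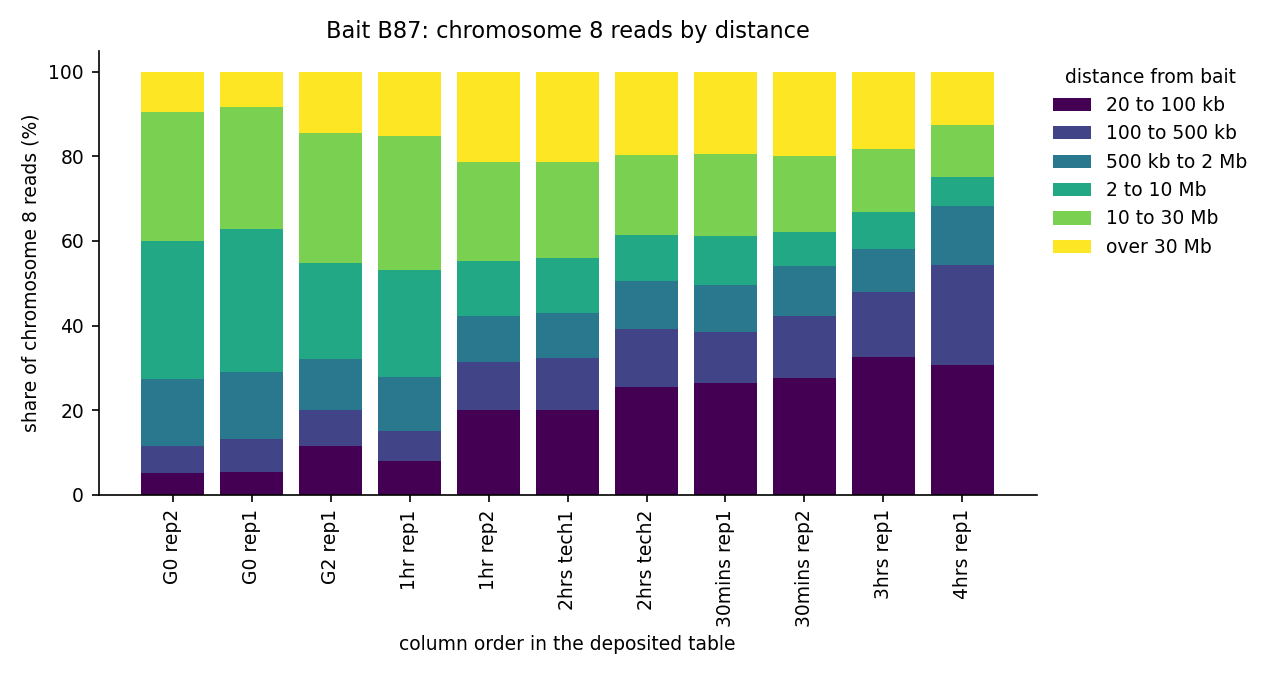
Stacked shares of chromosome 8 reads of bait B87 by distance from the bait, for the 11 columns in table order. The bottom segment, 20 to 100 kb, is 5.17% in G0 replicate 2 and 32.5% in the 3 h library, and the 2 to 10 Mb segment is 32.5% and 8.83% in these libraries.

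On a finer scale, reads were summed in 100-kb bins from 50 kb outwards, 38 of which were tested. In libraries of 2 to 4 h the share fell steeply next to the bait, and single steps between neighbouring bins were seen in G0 too. The 2 bins next to the bait took 40.98%, 44.3% and 37.7% of the near-bin reads at 2, 3 and 4 h, against 13.0% and 13.3% in G0. On the proximal side the bin 86084076 to 86184075, which holds Ndufb7, a subunit of respiratory complex I, and Dnajb1, a heat-shock co-chaperone, averaged 1.26% at 2 to 4 h. The bin beyond it (85984076 to 86084075), with the odorant receptor gene Olfr370, averaged 0.22%. In G0 the same bins averaged 1.99% and 0.91%. In G0 replicate 2, 10 of the 28 HindIII sites of the Olfr370 bin were captured, against 20 of 24 in the Ndufb7 bin. The next bin out (85884076 to 85984075) averaged 2.35% in G0 and 0.33% at 2 to 4 h, so the fall in G0 was confined to the Olfr370 bin. On the distal side the bin from 350 kb (87784077 to 87884076), with the origin recognition gene Orc6, averaged 4.70% at 2 to 4 h and 5.14% in G0. The next bin out (87884077 to 87984076), with the cardiac myosin kinase gene Mylk3, averaged 1.33% at 2 to 4 h and 2.59% in G0. The bins from 1050 kb outwards summed to 34.1% and 34.5% in G0, against 11.5%, 6.65% and 4.89% at 2 to 4 h and 7.82% to 27.7% in the first hour.

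G0 fell below 2 to 4 h in 8 of 38 bins, and in no bin was G0 called higher (edgeR quasi-likelihood test, Benjamini-Hochberg over all chromosome 8 baits). Over the bins of all 6 baits 9.65% were called, 7.89% lower and 1.75% higher, out of 228 tested. The 8 bins all lay within 750 kb of the bait, 5 proximal and 3 distal. Shares are relative: a larger share next to the bait leaves less for the outer bins.

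The largest fall was 50 kb distal (87484077 to 87584076), where 9 genes lie, among them Junb, an AP-1 transcription factor, Prdx2, a peroxiredoxin, and Rnaseh2a. It took 6.79% and 7.68% of near-bin reads in G0, against 27.5%, 27.8% and 26.7% at 2, 3 and 4 h. The groups lay far apart, with a log2 fold change of -2.80 ± 0.57 (SE, adjusted p = 0.00064 by edgeR). The first hour had 15.0% to 28.3% and the G2 library 19.0%, all above both G0 libraries.

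On the proximal side the bin from 50 kb (87284076 to 87384075) holds Calr, an endoplasmic reticulum chaperone, Farsa and part of Nfix, a nuclear factor I transcription factor. It took 6.20% and 5.64% in G0, against 13.5%, 16.5% and 10.99% at 2, 3 and 4 h. No G0 value reached the lowest of 2 to 4 h, and the log2 fold change was -2.09 ± 0.52 (adjusted p = 0.0051 by edgeR). The next bin out (87184076 to 87284075) holds Ier2, Nacc1, Trmt1, Nfix and Lyl1, a basic helix-loop-helix factor of blood cells. It took 4.10% and 2.38% in G0 and 5.50%, 5.27% and 4.24% at 2, 3 and 4 h, with a log2 fold change of -1.498 ± 0.46 (adjusted p = 0.031 by edgeR).

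Cacna1a, a neuronal calcium channel gene, spans 3 bins. Its bin from 250 kb (87084076 to 87184075) fell, with 1.62% and 1.698% in G0 against 2.83%, 4.21% and 3.12% at 2 to 4 h (log2 fold change -1.92 ± 0.52, adjusted p = 0.015 by edgeR). The other 2 had log2 fold changes of -1.25 and -1.49 and overlapped between groups. Farther out, the bins with Ccdc130 (86784076 to 86884075) and with Nanos3, a germ cell RNA-binding protein, Mri1 and Zswim4 (86684076 to 86784075) fell by 1.42 and 1.57 on the log2 scale (adjusted p = 0.037 and 0.044 by edgeR). In the Nanos3 bin the groups overlapped, with 1.19% and 2.04% in G0 against 1.97%, 2.98% and 2.80% at 2 to 4 h.

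On the distal side the bins with Dhps, the deoxyhypusine synthase, and Man2b1, a lysosomal mannosidase (87584077 to 87684076), and with the odorant receptor gene Olfr371 (87684077 to 87784076) fell by 1.37 and 1.54 on the log2 scale (adjusted p = 0.044 and 0.031 by edgeR). The Orc6 bin next to them did not pass (adjusted p = 0.21 by edgeR), and its log2 fold change was -0.75 with TMM scaling and 0.13 with read totals.

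A higher share in both G0 libraries than in any library of 2 to 4 h was seen in 23 of 38 bins, all 450 kb or more from the bait, and none passed the test with TMM scaling. A lower share in both was seen in 7 of 38. Over the 228 near bins of all 6 baits these shares were 46.5% higher and 18.9% lower, where 9.65% were called. The bin with Neto2 and Itfg1 (88184077 to 88284076) had 3.27% and 3.76% in G0, against 0.953%, 0.357% and 1.10% at 2 to 4 h, with a log2 fold change of 1.26 ± 0.49 (adjusted p = 0.092 by edgeR). A bin with no gene (88684077 to 88784076) had 2.196% and 2.83% in G0, against 0.450%, 0.160% and 0% at 2, 3 and 4 h.

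How the bins are scaled set this split. Scaling by TMM, edgeR's default, put the median log2 fold change of the 38 bins at 0.47 with 21 above 0, and scaling by read totals put it at 1.34 with 27 above 0. With read totals 4 of 38 bins were called (7.46% over all baits): 2 lower (the Junb bin, log2 -1.92, and the Calr bin, -1.21) and 2 higher (the Neto2 bin, 2.13, and the bin with no gene, 3.62). The other 6 called with TMM had -1.03 (Cacna1a), -0.63 (Ier2), -0.67 (Nanos3), -0.53 (Ccdc130), -0.49 (Dhps) and -0.66 (Olfr371), with adjusted p of 0.092 to 0.30 by edgeR. The number of calls also moved when single libraries were left out of the B87 fit. Shares over all baits are set beside, with the fits of the other baits unchanged. It was 1 of 38 without G0 replicate 2 (2.63% beside 3.51%) and 0 without G0 replicate 1 (0% beside 2.63%). It was 2 without 3 h (5.26% beside 5.70%). Without 4 h it was 5 (1 higher, 4 lower), and also 5 without 30 min replicate 1, each 13.2% beside 7.89%. Without 2 h it was 16 (10 higher, 6 lower, 42.1% beside 13.6%). Without the pair of columns that share sites it was 6 (15.8% beside 8.77%).

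No bin differed between 2 to 4 h and the first hour at an adjusted p under 0.05 (0 of 38 by edgeR, where 0 of 228 or 0% were called over all baits, 0 by DESeq2, and 0 of 38 at an unadjusted p under 0.05 by edgeR). That last count was 5 by DESeq2, and 13 by edgeR without the 2 h library. The Junb bin averaged 27.3% ± 0.6 at 2 to 4 h (SD, n = 3) and 22.8% ± 5.8 in the first hour (n = 4), a log2 fold change of 0.43.

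**Figure D3:**
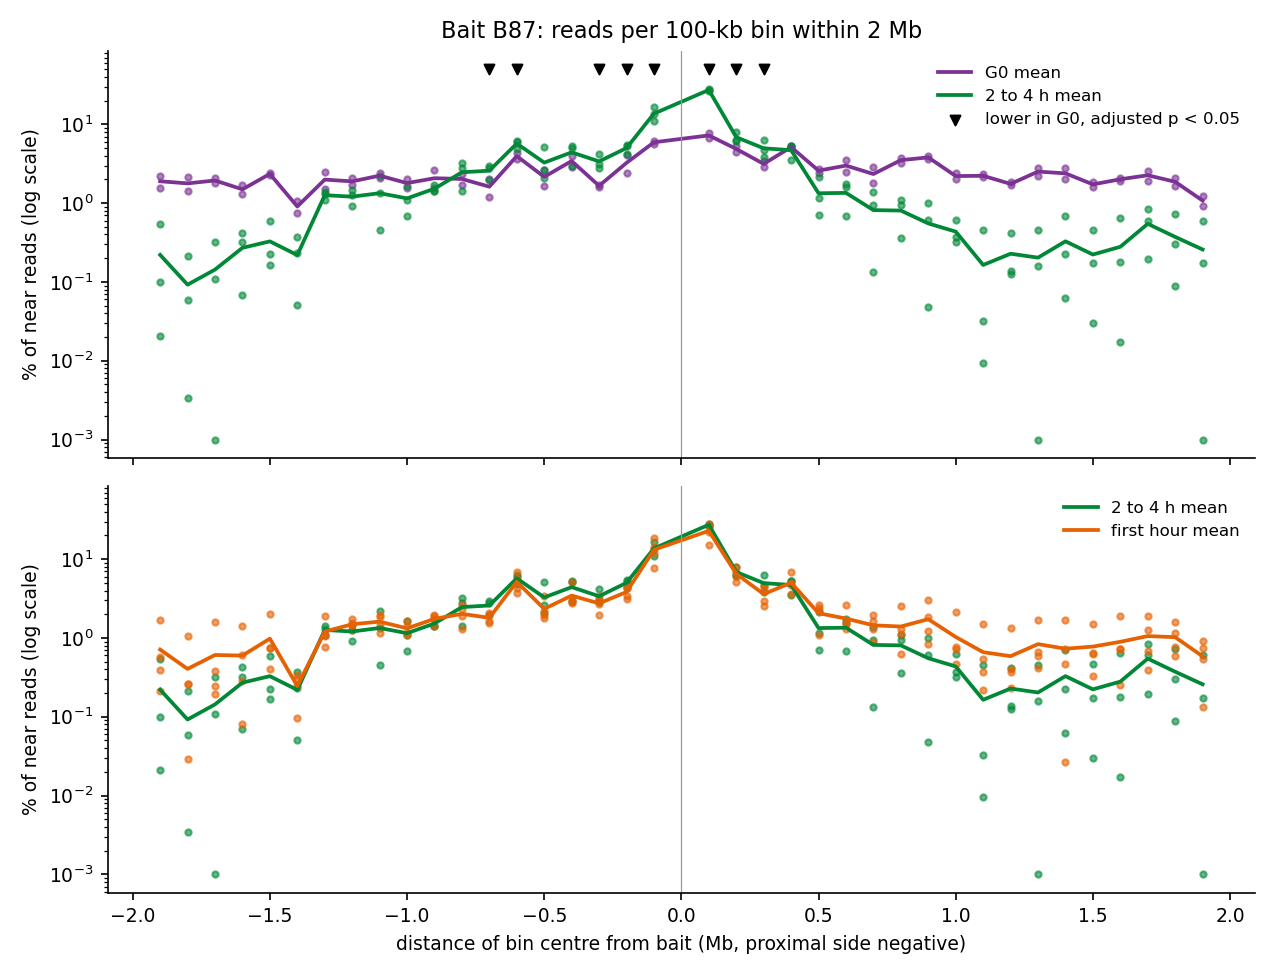
Share of near-bin reads per 100-kb bin of bait B87 against the distance of the bin's centre from the bait, on a log axis. Points are libraries (a value of 0 is drawn at 0.001%), lines are group means, and triangles mark the 8 bins lower in G0 than at 2 to 4 h. The means of 2 to 4 h and the first hour run together near the bait (27.3% and 22.8% in the Junb bin), while the G0 line is at 7.24% there and above the others beyond 1050 kb.

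The share of reads on chromosome 8, among all reads more than 20 kb from the bait, differed widely. It was 54.0% and 85.8% in G0, against 59.7%, 43.1% and 39.4% at 2, 3 and 4 h. The values interleave, with a difference of 22.5 points (exact permutation, two-sided p = 0.30). It was 38.4 points without G0 replicate 1 and 6.61 without G0 replicate 2. Libraries of 2 to 4 h averaged 47.4% ± 10.8 (SD, n = 3) and those of the first hour 55.9% ± 20.4 (SD, n = 4), from 27.9% in 30 min replicate 2 to 76.9% in 1 h replicate 1 (difference -8.47 points, exact permutation p = 0.54). Leaving out 1 library moved this difference to -1.47 without 1 h replicate 1, -4.45 without 4 h, -14.6 without 2 h and -17.8 without 30 min replicate 2. The share of near reads on the distal side was 51.3% and 55.0% in G0, against 52.6%, 45.96% and 49.0% at 2 to 4 h and 48.05% to 55.3% in the first hour, with no difference past the threshold (exact permutation p = 0.30 for G0 and 0.43 for 2 to 4 h against the first hour). The distal difference was 3.97 points for G0 and ran from 2.10 without replicate 2 to 5.85 without replicate 1. For 2 to 4 h against the first hour it was -2.48 points and ran from -4.17 without 2 h to -0.86 without 3 h.

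Long-range contacts on chromosome 8, more than 2 Mb from the bait, were uneven, and the bins with the highest mean over the 10 libraries held many genes. Captured sites ran from 687 of 38374 in the 4 h library to 19562 in G2. The level of a region is given as log2 of observed over expected captured sites, where the expected number follows the distance from the bait. At 10 to 30 Mb, 21.4% and 55.0% of sites were captured in G0, against 52.2%, 3.08% and 2.19% at 2, 3 and 4 h. A high captured share limits how far the level can rise, and the part of depth in the levels was not tested. The 10 highest 500-kb bins, at least 2 Mb apart, had means of 0.80 to 1.13 over the 10 libraries. They held 3 to 23 protein-coding genes at 44.8% to 51.4% GC, and 9 of them were above 0 in 10 of 10 libraries. All were chosen by these means, in which most libraries are not G0. The counts above 0, and lower values in G0 at these bins, are therefore set in part by the choice.

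The highest (122000001 to 122500000), with Usp10, a ubiquitin protease, and Cotl1, an actin-binding protein, averaged 1.13 ± 0.77 (SD, n = 10). It stood at 0.26 and 0.60 in G0, against 0.69, 1.84 and 2.45 at 2, 3 and 4 h. The bin 21 Mb distal (108500001 to 109000000) holds Nfatc3, a calcium-regulated transcription factor, and Esrp2, an epithelial splicing regulator. It averaged 1.09 ± 0.80, with 0.66 and 0.38 in G0 and 0.64, 2.35 and 2.40 at 2 to 4 h. In the first bin both G0 libraries lay below all 3 libraries of 2 to 4 h, and in the second only replicate 2 did. Because of how the bins were chosen, this order is no test of the groups.

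The bin with Upf1, the helicase of nonsense-mediated decay, and Crtc1, a CREB coactivator (72500001 to 73000000, 23 genes), averaged 0.99 ± 0.86. It had 0.42 and 0.23 in G0, against 0.56, 2.38 and 1.85 at 2 to 4 h and 0.31 to 2.34 in the first hour. The bin near the proximal end of the chromosome (13000001 to 13500000) holds Cul4a, a scaffold of ubiquitin ligases, Lamp1, a lysosomal membrane protein, and the coagulation factor genes F7 and F10. It averaged 1.07 ± 0.62, with 0.17 and 0.41 in G0 and 1.21, 2.34 and 1.23 at 2 to 4 h. The bin with Irf2bp2, an IRF2 corepressor, and Tomm20, a mitochondrial import receptor (129000001 to 129500000), had only 3 genes and averaged 0.90 ± 0.42.

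The other 5 held Aars and Mlkl (113500001 to 114000000, 0.95 ± 0.68), Acta1 and Nup133 (126000001 to 126500000, 0.93 ± 0.42), Slc7a5 and Map1lc3b (124000001 to 124500000, 0.89 ± 0.52), Fgfr1 and Whsc1l1 (26500001 to 27000000, 0.81 ± 0.59, above 0 in 9 of 10) and Ccl22 and Cx3cl1 (97000001 to 97500000, 0.80 ± 0.91). They code in turn for an alanyl-tRNA synthetase and the effector of necroptosis, for skeletal actin and a nuclear pore subunit, for an amino acid transporter and an autophagy protein, for a growth factor receptor and a histone methyltransferase, and for a pair of chemokines.

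The 5 lowest bins lay between -3.04 and -1.60 and were below 0 in 10 of 10 libraries. They were a cluster of alpha-defensin genes (22000001 to 22500000, -3.04 ± 0.74), 2 bins with predicted genes (57500001 to 58000000 with only 22 HindIII sites, and 19500001 to 20000000), 1 without genes (43500001 to 44000000) and 1 in Sgcz, a muscle sarcoglycan gene (39000001 to 39500000). The defensin bin had 0 reads in both G0 libraries. The expected numbers take no account of how well reads can be placed in a bin, and its part in these low levels was not tested.

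Windows of 1 Mb around chosen genes spread in the same way. Highest were Ctcf, the insulator-binding factor (1.08 ± 0.76), Cox4i1, a subunit of cytochrome c oxidase (1.08 ± 0.62), Irf8, a factor of myeloid cells (1.08 ± 0.61), Upf1 (1.00 ± 0.93), Crtc1 (0.98 ± 0.88) and Pard3, a polarity protein gene (0.77 ± 0.22), each above 0 in 10 of 10 libraries. The windows of Cox4i1 and Irf8, and of Upf1 and Crtc1, overlap. Pard3 ran from 0.55 to 1.30. Lowest were Zfp42, a pluripotency factor (-1.15 ± 0.46), Aga, a lysosomal amidase (-1.13 ± 1.26), Csmd1 (-0.98 ± 0.62), Defb1, a beta-defensin (-0.92 ± 0.52), the cadherin gene Cdh8 (-0.79 ± 0.95) and Odz3, a teneurin (-0.77 ± 0.64). Zfp42, Aga, Defb1, Cdh8 and Odz3 were below 0 in 10 of 10 libraries and Csmd1 in 9. The Iroquois genes Irx3, Irx5 and Irx6, 6.89 to 7.76 Mb away, stood at 0.33 to 0.35.

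The windows around the other baits gave B87's contacts with them. The window of B26, 60.7 Mb away, stood at 0.78 ± 0.48 (SD, n = 10, above 0 in 9), that of B118, 31.0 Mb away, at 0.31 ± 0.23 (9 of 10), and that of B7 at -0.30 ± 0.72. B44 and B53 stood at -1.13 ± 0.48 and -1.33 ± 0.93 and were below 0 in 10 of 10 libraries. Leaving out 20 kb around each bait gave 0.78 for B26, 0.25 for B118, -0.33 for B7, -1.12 for B44 and -1.31 for B53.

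The long-range GC difference was the mean GC of captured long-range sites (of their 500-kb bins) minus that of all long-range sites. It is not corrected for distance from the bait. It was 0.50 and 0.41 percentage points in G0, against 0.99, 3.04 and 3.01 at 2, 3 and 4 h, with no overlap (difference -1.89, exact permutation two-sided p = 0.20, smallest possible 0.10). The first hour had 0.61 to 2.64 (2 to 4 h minus first hour 0.87, exact permutation p = 0.29). That difference was 0.52 without 3 h, 0.54 without 4 h and 1.55 without 2 h. The libraries with the fewest captured long-range sites had the largest values: 2424, 1111 and 687 sites in 30 min replicate 2, 3 h and 4 h, with 2.64, 3.04 and 3.01 points. G0 replicate 1 had 5954 sites and 0.50 points, and 1 h replicate 2 had 14083 sites and 1.13 points. The part of depth or of distance in this was not tested. Weighted by reads the difference between G0 and 2 to 4 h was -2.13.

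Bins with 10 or more protein-coding genes hold 13.6% of the long-range HindIII sites. They took 11.4% and 11.1% of long-range reads in G0, below that share, against 28.6%, 33.9% and 34.9% at 2, 3 and 4 h and 15.4% to 37.2% in the first hour. Of captured long-range sites they took 13.5% and 14.4% in G0, close to that share, against 17.6%, 35.4% and 36.0% at 2, 3 and 4 h. In the first hour it was 15.3% to 33.0%. Neither measure is corrected for distance from the bait. Spearman's rho between bin GC and the level, over 243 bins that share their libraries, was 0.40 and 0.50 in G0, against 0.80, 0.70 and 0.65 at 2, 3 and 4 h and 0.67 to 0.79 in the first hour.

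**Figure D4:**
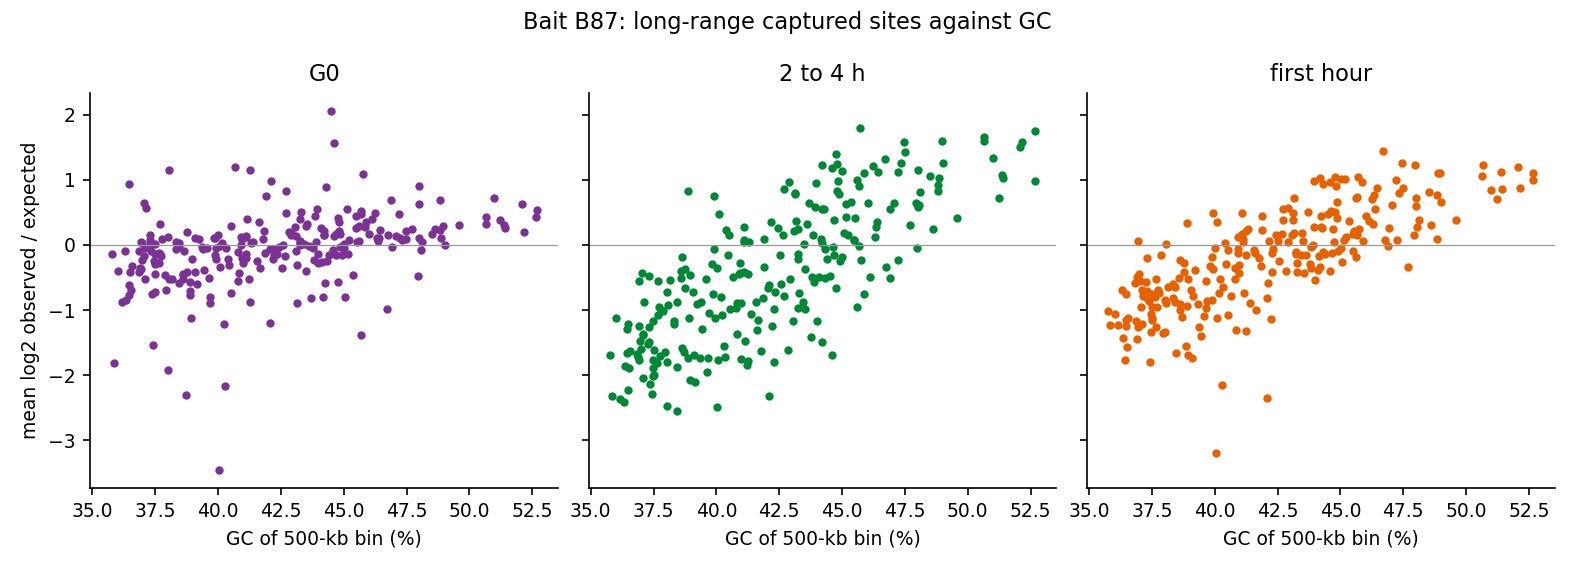
Mean log2 observed over expected captured sites of 500-kb long-range bins of bait B87 against the GC of the bin, in G0, at 2 to 4 h and in the first hour. Each point is 1 bin. The cloud is flatter in G0 (rho 0.40 and 0.50 in its libraries) than at 2 to 4 h, where rho was 0.65 to 0.80.

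In tests of single long-range bins, 0 of 244 passed for G0 against 2 to 4 h by edgeR (0 of 1467 over all baits, 0%), with 74 at an unadjusted p under 0.05, and DESeq2 called 62 (25 higher, 37 lower), which is 25.4% beside 24.9% over all baits. edgeR called 27 without the 2 h library of B87 (22 higher, 5 lower), or 11.1% beside 5.39% over all baits. The fits of the other baits kept their 2 h libraries. For 2 to 4 h against the first hour edgeR called 0 of 244 (0% over all baits, 2 at an unadjusted p under 0.05, and 54 without the 2 h library), and DESeq2 also 0. At the Nfatc3 bin the log2 fold change of G0 over 2 to 4 h was -1.78 ± 0.60 (adjusted p = 0.089 by edgeR).

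On other chromosomes, where captured sites ran from 2801 at 4 h to 57399 in the summed 2 h library of 783872 sites, contacts were spread unevenly over the chromosomes. Observed over expected captured sites averaged 1.57 ± 0.13 for chromosome 19, 1.46 ± 0.11 for 17, 1.40 ± 0.05 for 15, 1.36 ± 0.14 for 11 and 1.30 ± 0.05 for 10 (SD, n = 10), each above 1 in 10 of 10 libraries. Chromosome X was lowest at 0.49 ± 0.08, with 14 at 0.60, 12 at 0.64 and 18 at 0.69. Gene density did not order them fully, since chromosome 7, with 13.6 protein-coding genes per Mb, stood at 0.90 and chromosome 15, with 7.70, at 1.40. The expected numbers follow the HindIII sites of mm9 and take no account of chromosome copy number in these cells. The part of copy number in these values was not tested. Chromosome 11 stood at 1.11 and 1.29 in G0, against 1.41, 1.58 and 1.39 at 2 to 4 h.

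**Figure D5:**
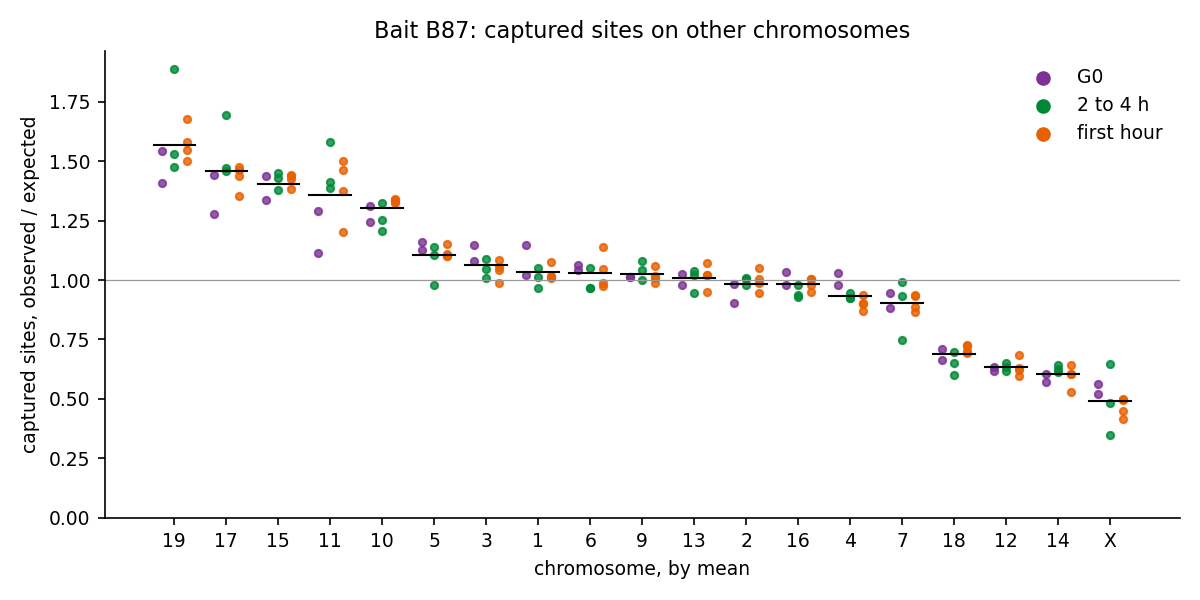
Captured sites of bait B87 on the other chromosomes over the number expected from their HindIII sites, by library and ordered by the mean (bars) of all libraries. The means run from 1.57 for chromosome 19 to 0.49 for chromosome X, over 10 libraries, and the G2 library counts in the mean without a point of its own.

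The 5 highest 2-Mb bins there had means of 1.65 to 1.78 on the log2 scale and were above 0 in 10 of 10 libraries. They lay on chromosome 11 (2000001 to 4000000, with Patz1 and Limk2, 1.78 ± 0.36), chromosome 15 (78000001 to 80000000, with Sox10 and Pdgfb, 1.74 ± 0.56), chromosome 10 (126000001 to 128000000, with Lrp1 and Stat6, 1.73 ± 0.76), chromosome 3 (88000001 to 90000000, with Lmna and Ash1l, 1.72 ± 0.56) and chromosome 19 (4000001 to 6000000, with Kdm2a and Rad9, 1.65 ± 0.74). The chromosome 10 bin stood at 0.24 and 0.51 in G0, against 2.10, 2.63 and 1.85 at 2 to 4 h, while that on chromosome 11 stood at 1.86 and 1.60 in G0 and 1.62, 2.65 and 1.54 at 2 to 4 h. These bins were chosen by their means over all libraries. The counts above 0 and the order of groups are set in part by that choice. Their expected numbers take no account of chromosome copy number.

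The GC difference of captured sites on other chromosomes was 0.51 and 0.76 points in G0, against 1.48, 1.93 and 1.26 at 2, 3 and 4 h (difference -0.92, exact permutation two-sided p = 0.10, the smallest possible). The first hour had 0.97 to 1.81 points (2 to 4 h minus first hour 0.20, exact permutation p = 0.43). That difference was 0.014 without 3 h, 0.076 without 1 h replicate 1, and 0.35 without 4 h or without 30 min replicate 1. Single bins on other chromosomes gave 0 of 1230 for G0 against 2 to 4 h by edgeR (0% of 7385 over all baits, 84 at an unadjusted p under 0.05) and 9 by DESeq2, all lower in G0 (0.732% beside 0.501% over all baits). For 2 to 4 h against the first hour both tools called 0, with 47 at an unadjusted p under 0.05 by edgeR, and 247 without the 2 h library.

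B87 was set against B26 and B118, 2 other chromosome 8 baits, over the 10 titles they share, in 8 tests with Benjamini-Hochberg adjustment. Its captured sites on other chromosomes were richer in GC than those of B118, by 0.61 points (1.25 ± 0.44 for B87 and 0.63 ± 0.19 for B118, SD, n = 10, permutation test, adjusted p = 0.0066, higher in 10 of 10 titles). Against B26 the difference of 0.43 points (1.25 ± 0.44 and 0.82 ± 0.28) had an adjusted p of 0.077 in the permutation test of 10 against 10, and 0.0039 when paired by title (exact sign-flip, higher in 10 of 10 titles). The long-range GC difference was 1.06 points above that of B26 (1.44 ± 1.07 and 0.38 ± 1.04, permutation adjusted p = 0.10, paired 0.0039, 10 of 10 titles). Against B118 it was 0.28 points higher (adjusted p = 0.61, 6 of 10 titles). This measure is not corrected for distance, and the baits lie at different places on chromosome 8. The part of position in these differences was not tested.

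The near share of B87 was lower than that of B26 by 3.75 points (43.6% ± 14.3 and 47.3% ± 13.9, permutation adjusted p = 0.63) and lower in 10 of 10 titles (paired exact sign-flip, adjusted p = 0.0039). Against B118 it was lower by 7.78 points (43.6% ± 14.3 and 51.4% ± 16.99, adjusted p = 0.44), in 9 of 10 titles (paired, adjusted p = 0.013). The same-chromosome share differed from that of B118 by -10.50 points (58.0% ± 18.0 and 68.5% ± 14.9, adjusted p = 0.34, paired 0.018), and lower than that of B26 by 2.17 points (58.0% ± 18.0 and 60.2% ± 17.6, adjusted p = 0.78). With captured sites in place of reads both differences to B118 turned round, to 1.01 points of near share and 2.92 of same-chromosome share, and without G0 replicate 1 the same-chromosome share was 0.69 points above that of B26. The same title at 2 baits may come from the same template, which the labels do not state.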

How the data were processed

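4C-seq libraries of Ch8.B87 were read as raw read counts per HindIII site, deposited by the authors; BWA 0.5.9 and mm9 are named per the submitters' processing notes, without filter settings. All rows of the table were HindIII sites of mm9. The bait, genes and GC came from the NCBIM37 (mm9) sequence and GENCODE, with 1-based coordinates. Depth was 266006 to 3860921 reads per column. No molecular identifiers mark PCR copies, so no counting intervals are given and captured sites stand beside reads.

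Near bins of 100 kb, long-range bins of 500 kb and bins of 2 Mb on other chromosomes passed filterByExpr before the quasi-likelihood test of edgeR 4.0.16 (R 4.3.3, TMM), 1 fit for each bait. Benjamini-Hochberg adjustment at 0.05 covered all 6 baits, and DESeq2 1.42.0 served as the other tool. Expected capture was smoothed over log distance by lowess (span 0.5), with 0.5 added to both site numbers before log2. Group differences used exact permutation of libraries, and bait differences 100000 resamples. Scripts ran in Python 3.11.15 and were tested on simulated data. Deviations of same-numbered replicates in near bins correlated at 0.55, 0.13 and 0.13 (30 min with 1 h, 30 min with G0, 1 h with G0). Replicate 2 has the long primer form at 30 min and 1 h but the short form in G0, so number and primer form cannot be told apart in the first value. The main tests between titled groups did not pair libraries by number, and the number was fitted as a block as an alternative.

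Named regions were every called near bin, the 10 highest and 5 lowest long-range bins, the 5 highest bins on other chromosomes, near sites captured in all libraries and a list of genes. The members and lists were chosen with earlier results of these data known. Text names also bins at steps of the near profile and the 2 near bins called with read totals, chosen after their values were seen. Alternatives were other units, distances, filters, scalings, bin sizes, primer forms, and each library left out; those for named long-range regions were chosen after seeing the data.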

Additional observations from a re-analysis of the deposited data

How the results depend on the processing

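The 10 differences in shares and GC between titled groups kept their direction under all alternatives run, and none passed the threshold, which the 5 for G0 could not (smallest possible p 0.10). The replicate block (libraries of replicate 1 only) gave -29.0 points of near share for G0 minus 2 to 4 h and 19.3 for 2 to 4 h minus the first hour. Leaving out 1 library gave -35.0 to -24.6 and 9.35 to 19.8 points for these 2. Against other baits, pairing by title (the replicate block) brought an adjusted p under 0.05 for the near share (-3.75 points to B26, -7.78 to B118), the same-chromosome share to B118 (-10.50) and the GC differences to B26 (1.06 long-range, 0.43 on other chromosomes). Captured sites in place of reads turned the differences to B118 round, to 1.01 points of near share and 2.92 of same-chromosome share; the cause was not tested. Over left-out titles the same-chromosome share to B26 ran from -5.27 to 0.69 points and the GC difference to B26 on other chromosomes from 0.38 to 0.47.

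The 8 near bins called for G0 minus 2 to 4 h became 4 with read totals, 14 with DESeq2 (36.8%, beside 19.3% over all baits), 0 with captured sites (0 at an unadjusted p under 0.05 among those of B87), 3 with doubled bins (16.7% beside 13.9%), 9 with the replicate block, and 0 to 16 over left-out libraries, the last without 2 h (42.1% beside 13.6%). The 0 long-range calls became 8 with read totals (3.28% beside 2.93%), 62 with DESeq2 (25.4% beside 24.9%), 38 with captured sites (15.8% beside 14.2%), 34 with doubled bins (27.4% beside 21.8%) and 0 to 27 over left-out libraries. The 0 calls on other chromosomes became 9 with DESeq2 and 1 with captured sites (the 1 call over all baits). The 2 to 4 h against first-hour counts stayed at 0 in each setting. The named long-range bins and gene windows moved by less than the spread between libraries under 4 alternatives chosen after seeing the data (2 reads or more for a captured site, and means without 3 h and 4 h, without G0 or without 1 h replicate 2). Near sites saturate: 29.7% to 81.7% of them were captured, so captured sites separate deep libraries poorly, and the 3 h and 4 h libraries, with 1111 and 687 captured long-range sites, limit those profiles.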
